A study of Caenorhabditis elegans with 2 samples.

Results

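Cytosolic ribosomal protein genes encode the protein parts of the ribosome outside mitochondria, and they were examined here as possible sites of binding by GFP-tagged C38D4.7 in C. elegans embryos. The members are 85 of 19983 protein-coding genes. Each was taken by name alone, as a gene whose RefSeq symbol or synonym or Ensembl symbol on assembly WBcel235 (the same as ce11) is rpl- or rps- plus a number, rla-0, rla-1, rla-2, ubl-1 or ubq-2. The family itself was chosen with earlier results of these data known. RefSeq symbols alone give 79 of them and Ensembl symbols alone give 83. Of the 85, 53 belong by name to the large subunit and 32 to the small subunit. The rule also takes in rpl-24.2, which RefSeq calls rsl-24D1 and annotates as a putative ribosome biogenesis factor rather than a part of the finished ribosome.

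Chromatin from whole late embryos of strain OP708, 4 hours old, of both sexes pooled and obtained by egg bleaching, was precipitated with an antibody against GFP and sequenced (ChIP-seq). RefSeq annotates the C38D4.7 protein with a C2H2-type domain, a kind of zinc finger. The strain carries unc-119(tm4063) and the transgene wgIs708, which supplies C38D4.7 joined to TY1, EGFP and 3xFLAG together with a working unc-119 copy. There was 1 group of 2 biological replicates of this 1 transgenic line, so no comparison of conditions could be made. No list from an untagged strain was used here, and whether the peaks below are specific to C38D4.7 was not tested. Whole organisms were used, so the tissue in which a promoter was bound cannot be told apart.

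Ribosomal protein genes are active in every growing cell, and their products are needed in equal amounts, because each ribosome holds a single copy of nearly every protein. In C. elegans many transcripts are trans-spliced, which replaces the first stretch of the RNA with a short leader. The annotated gene start can therefore lie downstream of the point where transcription begins. Some worm genes also lie in operons, where a downstream gene shares the promoter of the gene before it.

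The deposited lists hold optimal peaks in 627 distinct regions, from a step in which the authors compared the replicates. They also hold candidates in 29975 distinct regions from the pooled replicates, 29976 from replicate 1 and 26643 from replicate 2. Each summit, the point of highest signal, was ranked within its own list by the authors' score, with rank 1 the highest. The optimal peaks were the best-ranked lines of the pooled list, so an optimal peak has the same rank in both. Each is in the list by its pooled score, so a single optimal peak need not rank alike in both replicates. Read counts are not part of the lists, and the depth behind a peak is unknown. Promoters span 1200 bp, 1000 before the gene start and 200 after it, and a bound promoter is one with an optimal summit in it.

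Of the 85 ribosomal protein promoters 9 were bound (10.6%, 95% exact binomial interval 4.96 to 19.2, counting error over genes only), while 1.93% of all protein-coding promoters were. These were rpl-3, rpl-15, rpl-20, rpl-35 and rpl-24.2 of the large subunit list and rps-19, rps-24, rps-26 and rps-28 of the small subunit list. The shares were 5 of 53 for the large subunit (9.43%, interval 3.13 to 20.7) and 4 of 32 for the small subunit (12.5%, interval 3.51 to 29.0), and these intervals overlap widely. The 9 summits were 9 different peaks, with scores from 181.7 at rps-19 to 400.1 at rpl-3, in a list that runs from 180.1 to 6973. The other 76 promoters held no optimal summit, although 57 of them held a lower-ranked pooled candidate. With promoters of 300 bp on either side of the start, 4 members were bound, against 1.03% of all protein-coding promoters, and with the upper 50% of the optimal peaks 5, against 0.951%.

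The sequences at 6 of the 9 summits are shown as stretches of DNA under bound peaks, and those at rps-19, rps-26 and rpl-24.2 are not printed. All 6 shown hold a 6-mer marked below. The windows of rps-26 and rpl-24.2 hold none of these 6-mers within 50 bp of the summit, so the 6 do not stand for all 9. Each runs 5′ to 3′ on the strand of the gene, from 100 bp before to 100 bp after the optimal summit, read from the RefSeq sequence of WBcel235, and overlaps no annotated exon. Capitals mark the 6-mer CCGCAC, the 6-mer CGCACA, the 6-mer CCGCCC, the 6-mer TATAAA and the 6-mer TACACT, each on either strand, and TATAAA has no match here.
rpl-3, chrIII:3867465-3867665, plus strand: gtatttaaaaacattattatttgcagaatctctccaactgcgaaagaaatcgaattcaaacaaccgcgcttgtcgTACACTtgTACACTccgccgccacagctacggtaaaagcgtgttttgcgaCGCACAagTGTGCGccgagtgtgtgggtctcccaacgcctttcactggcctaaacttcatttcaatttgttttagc
rpl-35, chrIII:7854594-7854794, plus strand: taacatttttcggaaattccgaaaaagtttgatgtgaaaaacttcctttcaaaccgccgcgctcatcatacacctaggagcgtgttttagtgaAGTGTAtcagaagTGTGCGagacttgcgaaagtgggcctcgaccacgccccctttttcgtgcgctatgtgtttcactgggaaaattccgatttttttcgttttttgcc
rpl-20, chrIV:4749965-4750165, minus strand: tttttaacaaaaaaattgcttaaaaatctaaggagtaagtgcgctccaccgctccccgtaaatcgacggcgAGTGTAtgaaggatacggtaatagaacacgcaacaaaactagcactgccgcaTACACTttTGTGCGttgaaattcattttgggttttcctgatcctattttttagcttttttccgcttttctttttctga
rpl-15, chrIV:654847-655047, minus strand: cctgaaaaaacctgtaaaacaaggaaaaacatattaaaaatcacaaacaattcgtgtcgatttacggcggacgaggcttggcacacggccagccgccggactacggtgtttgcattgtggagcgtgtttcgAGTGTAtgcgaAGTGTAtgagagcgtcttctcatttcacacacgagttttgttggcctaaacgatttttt
rps-24, chrIV:385461-385661, plus strand: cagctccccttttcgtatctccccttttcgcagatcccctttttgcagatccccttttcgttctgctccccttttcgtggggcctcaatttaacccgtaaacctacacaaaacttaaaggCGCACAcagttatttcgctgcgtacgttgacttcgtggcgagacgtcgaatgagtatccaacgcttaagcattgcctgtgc
rps-28, chrIV:1659159-1659359, plus strand: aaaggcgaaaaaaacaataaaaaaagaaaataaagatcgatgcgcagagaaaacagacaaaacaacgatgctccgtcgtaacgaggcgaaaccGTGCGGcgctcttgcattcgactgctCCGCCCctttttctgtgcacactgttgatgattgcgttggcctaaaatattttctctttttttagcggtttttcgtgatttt

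The 9 bound promoters lay on chromosomes I (3 of 26 members), III (2 of 20) and IV (4 of 18), while 2.54% of all protein-coding promoters on I, 3.18% on III and 1.40% on IV were bound. Of the 11 members on II, the 8 on V and the 2 on X 0 were bound, numbers too small to set these chromosomes apart, where 66 of 3446, 64 of 4995 and 41 of 2730 of all protein-coding promoters were bound. Among the large subunit genes the highest-ranked promoter was that of rpl-3, which encodes a core protein near the peptidyl transferase centre. Its summit, at position 3867565 on III, lay at -289 bp from the gene start, where negative distances are upstream, and no other protein-coding promoter held it. It had rank 176 in the pooled list, 166 in replicate 1 and 235 in replicate 2, with a pooled score of 400.1. The rpl-3 window holds TACACT at 2 places and CGCACA on both strands.

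The promoter of rpl-15, another large subunit protein, ranked 270 in the pooled list, 270 in replicate 1 and 265 in replicate 2. Its summit lay at -371 bp from rpl-15 and at -443 bp from the divergent gene K11H12.8. The promoter of rpl-20, named rpl-18A in RefSeq, ranked 328 in the pooled list, 350 in replicate 1 and 374 in replicate 2. That summit lay at -287 bp from rpl-20 but nearer to the divergent start of Y17G9B.5, at -175 bp.

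The promoter of rpl-35, whose protein sits beside the exit of the nascent peptide tunnel, ranked 397 in the pooled list, 389 in replicate 1 and 522 in replicate 2, with its summit at -440 bp. It was the farthest upstream of the 9. The promoter of rpl-24.2 ranked 447 in the pooled list, 438 in replicate 1 and 651 in replicate 2. Its yeast homologue Rlp24 holds a place on the immature large subunit that Rpl24 later takes. The rpl-24.2 summit, at position 9669277 on I, lay at -138 bp, the nearest of the 9 to its start, and inside the neighbouring gene C03D6.1.

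Among the small subunit genes the promoter of rps-26 stood highest, with rank 246 in the pooled list, 245 in replicate 1 and 281 in replicate 2. It encodes a protein near the channel through which mRNA leaves the ribosome. The rps-26 summit, at position 14759507 on I, lay at -423 bp from rps-26 and at -34 bp from tmem-107, which is transcribed away from it, and 95 bp from the snoRNA gene F39B2.14. Which of these 3 genes the rps-26 peak belongs to cannot be told apart from its position. A tRNA, snoRNA, snRNA, rRNA, scRNA or miRNA gene lay within 200 bp of the summit at 1 of the 9 bound members, rps-26 (11.1%), against 24.4% of the 283 best summits of bound protein-coding promoters. Over all 85 members the best pooled summit lay that near to such a gene in 5 (rps-26, rpl-4, rla-1, ubl-1 and Y37E3.8, 5.88%), against 0.781% of all protein-coding genes. Both shares count genes without a candidate, which are fewer among the members. Among genes with a pooled candidate the counts were 5 of 66 members and 156 of all 6716.

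The promoter of rps-28, whose protein also lies near the mRNA exit, ranked 257 in the pooled list, 238 in replicate 1 and 365 in replicate 2, with its summit at -432 bp, in a stretch that is also the promoter of Y41D4B.4. The promoter of rps-24 ranked 317 in the pooled list, 285 in replicate 1 and 444 in replicate 2, with its summit at -333 bp and no other protein-coding promoter there. Human homologues of many ribosomal protein genes, those of rps-19, rps-24 and rps-26 among them, are known as genes mutated in Diamond-Blackfan anaemia. The promoter of rps-19 had the lowest place of the 9, with rank 635 in the pooled list, 922 in replicate 1 and 563 in replicate 2. Its summit, at position 9626091 on I, lay at -295 bp from rps-19 and at -150 bp from hsr-9, a gene on the other strand, and its -log10 q was 2.40, while the other 8 bound members had the top value of 3.06, which 89.5% of all optimal peaks share.

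**Figure D1:**
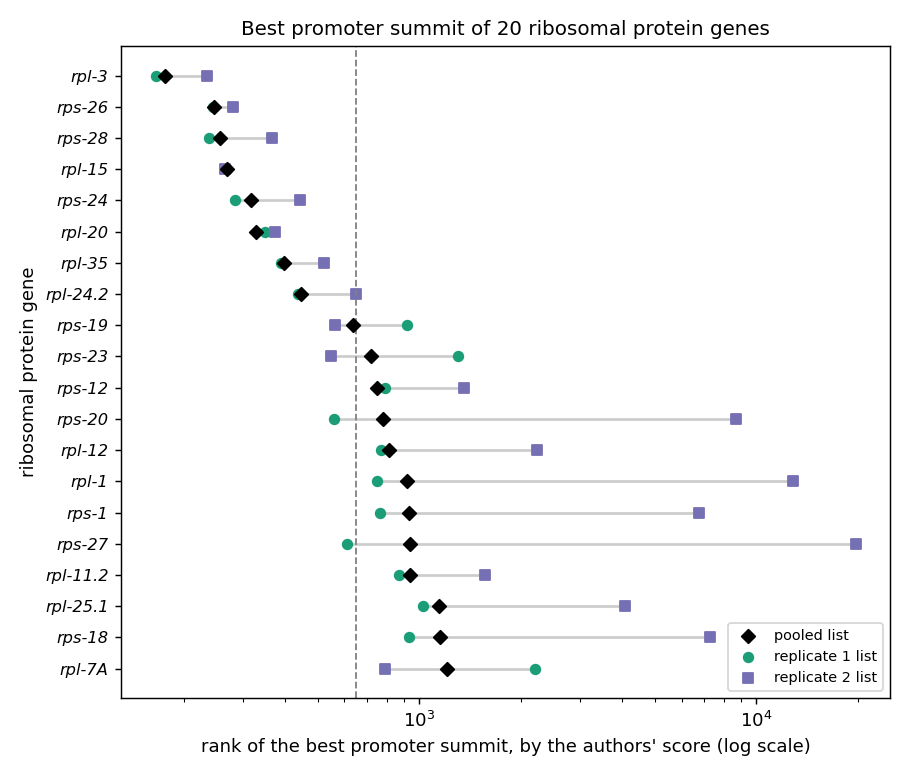
Rank of the best promoter summit (x axis, log scale, by the authors' score) for the 20 ribosomal protein genes with a pooled rank up to 1300 (y axis), in the pooled list (diamonds), replicate 1 (circles) and replicate 2 (squares). The dashed line marks the length of the optimal list; 9 genes lie left of it in the pooled list, and rps-27 spans from 611 in replicate 1 to 19676 in replicate 2.

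More ribosomal protein promoters followed just below the end of the optimal list. From there to pooled rank 1300 lay 11 more of the 85 (12.9%), against 1.38% of all protein-coding promoters, and up to rank 2000 there were 24 (28.2%), against 4.49%. The first below the end of the list was rps-23, which encodes a protein of the decoding centre, with rank 719 in the pooled list, 1302 in replicate 1 and 549 in replicate 2, and a pooled score of 173.0. Next came rps-12 at 752 in the pooled list, 789 in replicate 1 and 1361 in replicate 2.

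The promoter of rps-20 ranked 780 in the pooled list, 557 in replicate 1 and 8721 in replicate 2. The promoter of rpl-12, whose protein lies at the base of the ribosomal stalk, ranked 814 in the pooled list, 772 in replicate 1 and 2238 in replicate 2. The promoters of rpl-1, named rpl-10a in RefSeq, and rps-1, named rps-3A there, ranked 922 and 932 in the pooled list. In these 4 promoters the replicate 1 rank was better than the replicate 2 rank, at rpl-1 by 750 against 12849 and at rps-1 by 763 against 6755.

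Over the whole pooled list 66 of the 85 promoters held a candidate (77.6%, interval 67.3 to 86.0), against 33.6% of all protein-coding promoters. Among those with a candidate, the median rank of the best was 3965 for ribosomal protein genes (quartiles 991.25 and 13727.5) and 11454.5 for all 6716 protein-coding genes with one. The median depended on the replicate: it was 3328 in the replicate 1 list, against 11570 for all protein-coding genes, and 7951.5 in the replicate 2 list, against 11201. Small subunit promoters had a median of 2932 over 27 genes, and large subunit promoters 5860 over 39 genes. The difference between the subunits was not tested, and the quartiles overlap (856 to 10645 for the small subunit, 1265.5 to 17552.5 for the large). Up to rank 5000 there were 35 of the 85 promoters (41.2%), against 9.13% of all protein-coding promoters. Within rank 10000 lay 44 of the 66 best ranks, against 3007 of 6716 for all protein-coding genes with a candidate. The other 22 of the 66 were over 10000.

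No pooled candidate lay in 19 of the promoters, 14 of the large subunit and 5 of the small. For 8 of them (9.41%, against 54.2% of all protein-coding promoters) no list held a candidate: rpl-7, rpl-21, rpl-27, rpl-37, rps-0, rps-7, rla-2, a protein of the stalk that binds elongation factors, and ubq-2, which makes ubiquitin fused to a large subunit protein. The other 11, namely rpl-10, rpl-16, rpl-18, rpl-25.2, rpl-28, rpl-31, rpl-32, rpl-42, rps-16, rps-17 and rps-21, had a candidate in a replicate list, at ranks from 9803 (rps-21, replicate 2) to 25907 (rpl-10, replicate 1). Of the other stalk genes, rla-0 ranked 25278 and rla-1 ranked 9047 in the pooled list. The second ubiquitin-type fusion gene, ubl-1, ranked 11284, with its summit within 200 bp of a small RNA gene.

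In 3 pairs of genes for copies of the same protein the ranks lay far apart. The promoter of rpl-11.2 ranked 939 in the pooled list and that of rpl-11.1 ranked 3871. The promoter of rpl-25.1 ranked 1148, and that of rpl-25.2 held no pooled candidate. The promoter of rpl-41.2 ranked 4059 and that of rpl-41.1 ranked 28929. In a further pair by RefSeq symbol neither stood high: W01D2.1 (rpl-37.1 in RefSeq) ranked 21225, and rpl-37 (rpl-37.2 there) held no candidate in any list. How far apart the ranks of any 2 members usually lie was not measured. The sources used here do not say how reads that map to several places were treated, which could matter for genes with near-identical copies. An optimal summit of rank 299 lay at -1773 bp from rpl-11.1, outside the promoter window, and was nearest to the start of T22F3.2.

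**Figure D2:**
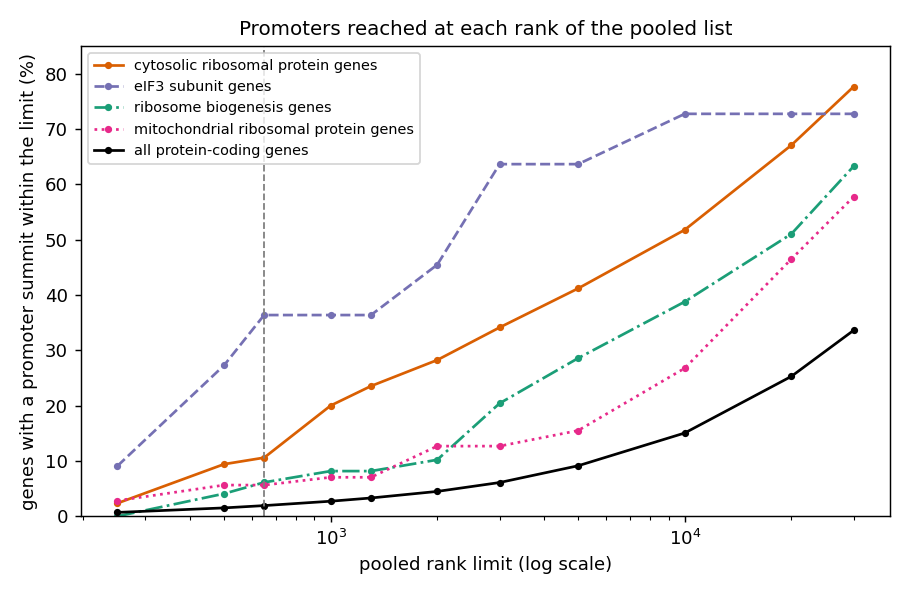
Share of genes in each list whose promoter holds a summit within a given rank of the pooled list (y axis, %, against the rank limit on a log x axis), with points at 11 rank limits and the dashed line at the end of the optimal list. Ribosomal protein genes reach 10.6% at that line, 28.2% at rank 2000 and 77.6% at rank 30000, and all protein-coding genes 1.93%, 4.49% and 33.6%.

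The replicates placed the 9 bound summits close together. In each of the 9 promoters the best summits of replicates 1 and 2 lay within 39 bp of each other, with a median gap of 25 bp. The gap was 0 bp at rpl-24.2 and 39 bp at rpl-3. In the 39 unbound promoters with a candidate in both replicate lists the median gap was 79 bp and 23 gaps exceeded 50 bp. That is near the level of all protein-coding genes with a candidate in both lists, where the median gap was 83 bp and 2479 of 4006 gaps exceeded 50 bp. The gaps at bound promoters of other genes were not computed, so whether close summits are particular to these 9 was not tested. The optimal peaks are the best-ranked lines of a list made from both replicates pooled, so the closeness of the 9 is not independent of that choice.

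Ranks differed between the replicates for several genes. Each replicate list was read down to as many lines as the optimal list has. That top part held 10 members for replicate 1 (11.8%, against 1.89% of all protein-coding promoters) and 9 for replicate 2 (10.6%, against 1.76%). The 7 found in both (8.24%, against 1.33%) were rpl-3, rpl-15, rpl-20, rpl-35, rps-24, rps-26 and rps-28. With promoters of 300 bp on either side of the start 1 member was in both top parts, and with top parts shortened by 50% there were 3. Only replicate 1 placed rpl-24.2, rps-20 and rps-27 in its top part, and only replicate 2 placed rps-19 and rps-23. Of these, rpl-24.2 lay just past the end of the replicate 2 top part, at rank 651. Over all protein-coding promoters the top part held 377 for replicate 1 and 351 for replicate 2, with 265 in both. The promoter of rps-27 ranked 611 in replicate 1 and 19676 in replicate 2, and its pooled rank was 936. No member in the top part of 1 replicate list was absent from the whole list of the other (0 of 85), which was not counted over all protein-coding genes.

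A candidate lay in 65 of the 85 promoters in replicate 1 (76.5%, against 33.9% of all protein-coding promoters) and in 58 in replicate 2 (68.2%, against 30.7%). It lay in both lists at 48 members (56.5%, against 20% of all, which is 4006 of 19983), in replicate 1 alone at 17 and in replicate 2 alone at 10. Over all protein-coding genes 6773 had a candidate in replicate 1 and 6125 in replicate 2, so many genes outside the family also had one in a single list. Of the 48, 32 ranked better in replicate 1 and 16 in replicate 2, with medians of 2504.5 in replicate 1 and 6344.5 in replicate 2. For the 4006 protein-coding genes with a candidate in both lists the medians were 7769 in replicate 1 and 8236.5 in replicate 2, with 2023 genes better in replicate 1 and 1979 in replicate 2. This lean of the ribosomal protein genes towards replicate 1 was not tested, and the lists differ in length.

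**Figure D3:**
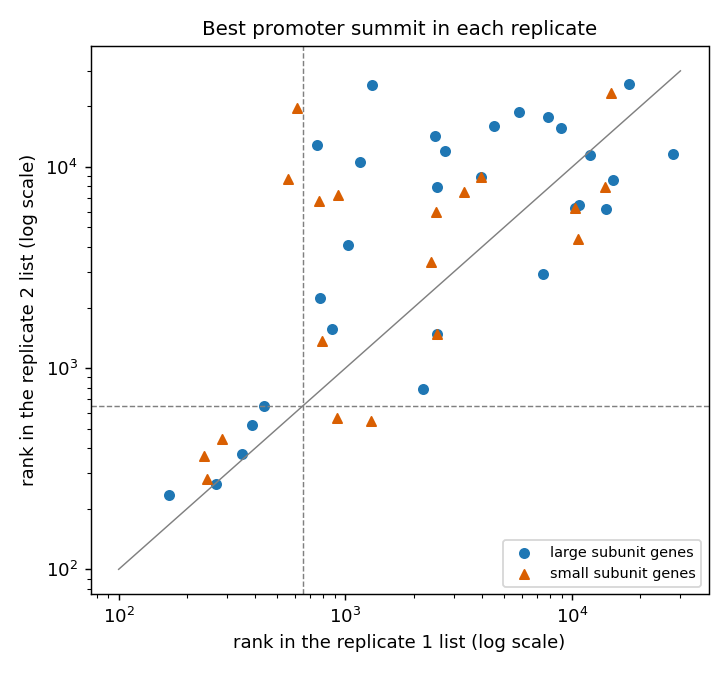
Rank of the best promoter summit in replicate 1 (x axis) and replicate 2 (y axis), both on log scales, for the 48 ribosomal protein genes with a candidate in both lists, by subunit. Dashed lines mark the length of the optimal list and the solid line equal ranks; 7 genes lie within that length in both lists, and 32 of 48 lie above the line of equal ranks, with the better rank in replicate 1.

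All 9 bound summits lay upstream of the gene start, between -440 and -138 bp, with a median of -333 bp. For the 385 bound protein-coding promoters the median was -297 bp and 373 summits lay upstream. Over the 66 ribosomal protein promoters with a pooled candidate the best summit lay upstream in 57 (86.4%), against 83.8% for all protein-coding genes with one. The median was -288 bp, the quartiles were -455.25 and -144.75 bp, and for all protein-coding genes with one the median was -313.5 bp. No optimal summit lay inside a ribosomal protein gene. The window itself limits these distances.

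**Figure D4:**
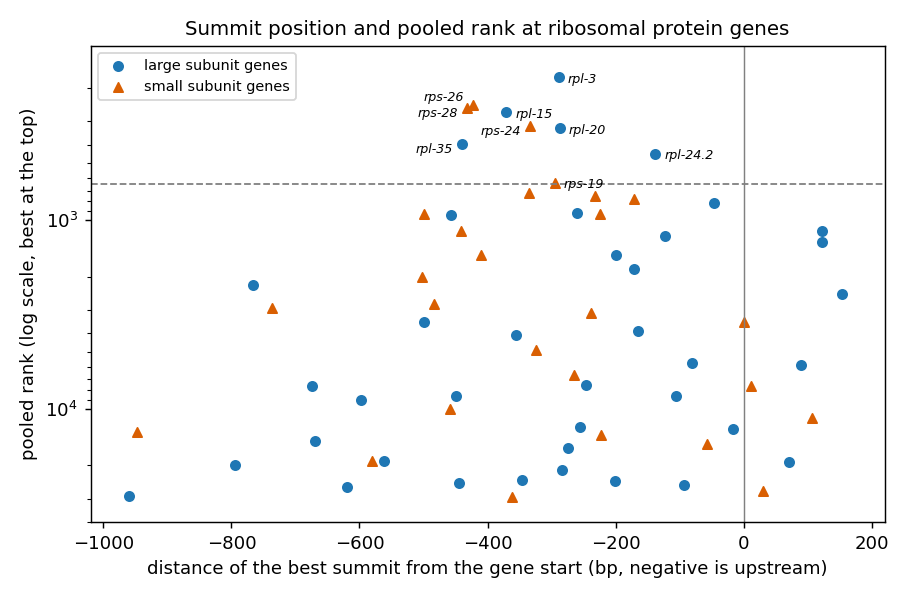
Distance of the best pooled summit from the gene start (x axis, bp, negative is upstream) against its pooled rank (y axis, log scale, best at the top) for the 66 ribosomal protein genes with a pooled candidate, by subunit. The 9 named genes above the dashed line, the end of the optimal list, have summits from -440 to -138 bp, and of the best summits of all 66 genes 57 lie upstream.

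Many members had the start of a divergent neighbour close upstream, and whether the 2 genes share a promoter was not tested. A divergent protein-coding start within 1000 bp upstream was annotated for 49 of the 85 members (57.6%), against 17.5% of all protein-coding genes. The distance between such starts ran from 254 to 981 bp with a median of 559 bp. Among members with a divergent start 4 of 49 were bound (8.16%), and among those without 5 of 36 (13.9%). For all protein-coding genes these shares were 4.49% with a divergent start and 1.38% without.

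For 21 of the 66 members with a candidate, the best summit lay nearer to another protein-coding start, and in 19 of these that start was the divergent neighbour's. The matching share over all protein-coding genes was not computed. A nearer start of another gene was found at 3 of the 9 bound members, rps-26, rps-19 and rpl-20. It was also found at rps-18, with its summit 26 bp from the start of sec-61.A, a gene for the channel that carries proteins into the endoplasmic reticulum. When summits were assigned only to the nearest start, 6 of the 9 ribosomal protein promoters remained bound. The bound share of all protein-coding promoters also fell, from 1.93% to 1.40%.

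Pairs of ribosomal protein genes also faced each other. At 3 divergent pairs both members shared the same best summit, so each such summit stands for 2 members in the counts above: rps-10 with rpl-24.1 at pooled rank 1536, rps-30 with rpl-39 at 3479, and rps-14 with rpl-36 at 7573. The shared summit lay 1 bp from the start of rps-30 and 11 bp from that of rps-14. At rps-10 and rpl-24.1 it lay between them, at -410 bp from rps-10 and -200 bp from rpl-24.1.

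Promoters behind another gene on the same strand were few. A same-strand gene ended within 500 bp upstream of 8 members (9.41%), against 18.1% of all protein-coding genes, and 0 of the 8 were bound, against 54 of all 3607 genes with such a neighbour. In 5 the gap was at most 150 bp: rpl-25.1 after glit-1 (98 bp), rla-1 after Y37E3.8 (106 bp), rpl-16 after lias-1 (106 bp), rps-16 after fib-1 (112 bp), the gene for the nucleolar methyltransferase fibrillarin, and rpl-27 after C53H9.2 (132 bp). Of these only rpl-25.1 and rla-1 had a pooled candidate. Whether these pairs form operons was not tested.

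The sequences printed above differed in the 6-mers they held within 50 bp of the summit, counted on both strands. CGCACA was in 4 of the 9 bound windows (44.4%), those of rpl-3, rpl-20, rpl-35 and rps-24, against 18.4% of the 283 summits that are the best of a bound protein-coding promoter. CCGCCC was in 2 (rps-28 and rps-19, 22.2% against 13.8%) and CCGCAC, which overlaps CGCACA by 5 bases, in 1 (rps-28, 11.1% against 18.7%). TATAAA, the TATA box core, was in 0 of 9 windows, against 3.18%. The 283 include summits within 200 bp of a small RNA gene, while 8 of the 9 bound members have theirs farther away. Over the 214 summits farther away the shares were 24.3% for CGCACA, 24.8% for CCGCAC, 17.3% for CCGCCC and 1.87% for TATAAA. Against these 214 the contrast for CGCACA is smaller. With 25 bp on each side in place of 50, CGCACA was in 2 windows (22.2%, against 10.6% of the 283) and CCGCCC in 1 (11.1%, against 6.36%). At that width 30 of the 214 held CGCACA and 18 held CCGCCC. With 100 bp on each side CGCACA was in 4 of the 9 windows, against 25.8% of the 283 and 32.2% of the 214. These 4 kinds of 6-mer were chosen with earlier results on the same peaks known.

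TACACT, searched only after the windows had been seen, was in 4 of the 9, all of the large subunit list: rpl-3, rpl-15, rpl-20 and rpl-35. It was in 4.59% of the 283 optimal promoter windows, that is 13 windows, these 4 among them, and in 3.44% of pooled candidates outside the optimal list. With 25 bp on each side TACACT was in 2 of the 9 windows, against 1.77% of the 283. In rpl-20 a TACACT and a CGCACA lie 2 bases apart. Among the 54 best summits of unbound members CGCACA was in 3 (5.56%) and TACACT in 2 (3.70%). Over the whole promoter CGCACA was in 34 of the 85 ribosomal protein promoters, against 23.1% of all protein-coding promoters. For TACACT the shares were 30.6% of ribosomal protein promoters and 36.1% of all.

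Genes of translation initiation, ribosome biogenesis and the mitochondrial ribosome were set beside them. The eIF3 and mitochondrial lists follow a name pattern, while the biogenesis list is a hand-made one of 56 symbols. All 3 lists were chosen with earlier results of these data known, so their shares describe these lists only. Subunits of initiation factor eIF3, which brings the small subunit to the mRNA, had 4 of 11 promoters bound (36.4%, interval 10.9 to 69.2), led by eif-3.C at pooled rank 114, eif-3.I at 382 and eif-3.E at 448. Ribosome biogenesis genes had 3 of 49 bound (6.12%, interval 1.28 to 16.9): rpac-19, a subunit shared by RNA polymerases I and III, at rank 308, larp-1 at 455 and tif-1A at 576. In replicate 2 larp-1 ranked 2691 and tif-1A ranked 2825. Mitochondrial ribosomal protein genes had 4 of 71 bound (5.63%, interval 1.56 to 13.8), led by mrps-28 at rank 23, mrpl-23 at 171 and mrpl-39 at 266. The mrps-28 summit lay at -993 bp, at the edge of its promoter, and no replicate 1 summit lay in that promoter.

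The intervals of these 3 lists all overlap that of the cytosolic ribosomal protein genes, and no difference between lists was tested. Among promoters with a candidate, the median pooled rank was 3965 for cytosolic ribosomal protein genes, 1274 for eIF3 subunits, 6687 for ribosome biogenesis genes and 14200 for mitochondrial ribosomal protein genes.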

How the data were processed

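Peak lists of 2 biological replicates of 1 tagged strain were used. Per the file headers and read-me texts, the authors produced 1 region list per replicate and 1 from the pooled alignments, all with 1 shared control alignment on ce11, and a list of optimal peaks by the irreproducible discovery rate. Caller, aligner and threshold were not given in the sources used here. The deposited columns used were the authors' score, of unstated scaling and used only for ranks within a list, the authors' −log10 of the q-value, and the authors' summit offset. Every column was mapped to a replicate or to the pool. Depth is unknown.

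Gene starts, names and sequence came from RefSeq on WBcel235, with further names from Ensembl release 115, joined by gene ID. Summits were assigned to promoters with Python 3.11.15, pandas 2.3.3 and numpy 2.4.6, and the assignment was tested on simulated data. Intervals are exact binomial (Clopper-Pearson, scipy 1.17.1) and cover counting error over genes. No significance test was run, since there is 1 group. The members, lists and the first 4 of the 6-mers were chosen with earlier results of these data known. Of 56 ribosome biogenesis symbols 49 matched a gene and 7 did not. Genes were named by rule: all bound members, the 6 next by pooled rank, those without a pooled candidate, and the 3 best of each other list. Gene copies, stalk and fusion genes, neighbour pairs, rps-18, rps-27, rpl-4 and Y37E3.8 were named after their values were seen. Alternatives were other promoter windows, region overlap, distinct regions, nearest starts, all transcript starts, small RNA genes left out, fewer peaks and each replicate alone.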

Additional observations from a re-analysis of the deposited data

How the results depend on the processing

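The count of 9 bound ribosomal protein promoters stayed at 9 with a promoter of 500 bp before and 100 bp after the start, with any overlap of region and promoter, with 1 line per distinct region and with all transcript starts. It was 8 without summits near small RNA genes. No optimal list exists for 1 replicate alone. In its place the top part of each replicate list, as long as the optimal list, was counted. It held 9 to 10 members, the counts given above, and these were not all the bound genes. With promoters of 300 bp either side of the start the bound count was 4 (large subunit 3, small subunit 1), since 5 of the summits lie farther upstream. In that window 40 members had a pooled candidate (66 in the main setting), at a median of -130.5 bp. That window left 1 member, not 7, in the top part of both replicate lists. With the upper 50% of the optimal peaks by score 5 promoters were bound, 2 of them large subunit. With summits assigned only to the nearest start 2 small subunit promoters were bound. With the top part of both replicate lists shortened by 50% it held 3 members, and with 2000 lines it held 12. The background share of all promoters was 1.36% with the 500 bp window, 1.03% with 300 bp, 2.16% with overlap, 1.40% with the nearest start, 1.54% without small RNA genes and 0.951% with the upper 50% of peaks. Of 76 recomputed values 59 stayed within tolerance and 17 did not. The tolerance was 1.5 times for counts, the exact interval of the main share for shares, and the main quartiles for medians, which is wide. In the top part of 1 replicate list alone the large subunit count was 4 to 5 and the small subunit count 5. Over the whole list of 1 replicate the candidates were 58 to 65, the median rank 3328 to 7951.5 and the median position -326 to -296 bp. No paired analysis was possible because there is 1 group. TACACT was chosen after seeing the data. Depth is unknown, so absence from a list does not show that a promoter was unbound.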
